A study of Homo sapiens with 12 samples.

Results

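The genes described here are 42 genes of the G2 phase and of mitosis, taken from a list of symbols with the condition that a gene's mean normalized count over all libraries was at least 20. All 42 listed genes met the condition, among 12939 genes that did so. HepG2 is a human liver cancer line. Cells received siRNA to CPSF6 (siCPSF6) or control siRNA (siNC), were cultured for 48 h and were then given 5 µg/ml actinomycin D, which stops transcription, for 0, 3 or 6 h; the 6 groups held 2 biological replicates each, 12 libraries in all. Every group, the siNC and 0 h groups included, was transfected, and the siRNA sequences were not used here. CPSF6 is a subunit of cleavage factor Im, which helps to select where an mRNA is cleaved and polyadenylated, and the series was designed to profile RNA stability after its silencing.

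Cyclins A2, B1 and B2 activate CDK1 and so drive entry into mitosis, while Aurora and Polo-like kinases, the kinetochore and kinesin motors build the spindle and separate the chromosomes. The anaphase-promoting complex then marks cyclin B and securin for destruction. Most of these genes are transcribed in late S phase and G2 through the MuvB complex, which with B-MYB (MYBL2) and FOXM1 binds promoters at the cell cycle genes homology region (CHR), often beside CCAAT boxes that bind NF-Y; they are used as markers of proliferating cells in liver tumours.

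The promoters of 6 members are shown because results below turn on these genes and each window holds both kinds of element; they were chosen after their values were seen. Each line gives the 150 bases before the RefSeq start site (GRCh38.p14), 5′ to 3′ on the gene's strand. Capitals mark CCAAT boxes (CCAAT or its complement ATTGG) and CHR letters (TTTGAA, its complement TTCAAA, or TTTAAA). The windows are chr1:154974531-154974680 (+), chr9:89311045-89311194 (+), chr16:23678739-23678888 (+), chr15:90994536-90994685 (-), chr5:138178962-138179111 (+) and chr5:163460482-163460631 (+), in the order printed.
CKS1B: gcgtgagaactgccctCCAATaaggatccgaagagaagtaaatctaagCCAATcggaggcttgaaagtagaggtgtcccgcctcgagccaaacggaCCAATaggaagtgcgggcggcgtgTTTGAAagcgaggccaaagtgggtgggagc
CKS2: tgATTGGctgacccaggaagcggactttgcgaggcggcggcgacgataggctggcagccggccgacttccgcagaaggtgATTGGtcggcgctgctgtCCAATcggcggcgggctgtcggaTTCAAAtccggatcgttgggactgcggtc
PLK1: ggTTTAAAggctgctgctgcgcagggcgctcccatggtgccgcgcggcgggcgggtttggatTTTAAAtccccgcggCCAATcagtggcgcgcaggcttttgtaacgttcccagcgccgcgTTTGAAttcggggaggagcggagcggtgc
PRC1: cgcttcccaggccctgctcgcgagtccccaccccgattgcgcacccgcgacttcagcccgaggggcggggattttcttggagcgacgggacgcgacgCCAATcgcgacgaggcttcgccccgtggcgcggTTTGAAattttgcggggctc
KIF20A: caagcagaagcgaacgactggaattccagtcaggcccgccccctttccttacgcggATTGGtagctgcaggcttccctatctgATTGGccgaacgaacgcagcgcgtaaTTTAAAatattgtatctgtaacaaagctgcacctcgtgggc
HMMR: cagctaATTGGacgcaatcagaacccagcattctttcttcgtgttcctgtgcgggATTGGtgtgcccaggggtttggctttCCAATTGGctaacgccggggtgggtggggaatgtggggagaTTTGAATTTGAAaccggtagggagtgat

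RefSeq promoters were matched for 36 of the 42 genes. In the 300 bases from 250 before to 50 after the start, and on both strands, 31 of the 36 (86.1%) held TTTGAA or TTTAAA, against 20.8% of 9868 tested genes with a promoter entry and 24% of 35116 windows of that length. CCAAT was in 29 of the 36 (80.6%), against 43.3% of the tested genes and 34.6% of all windows. Both were in 24 of the 36 (66.7%), against 8.8% of the tested genes. Matches may overlap one another, as in CCAATTGG of HMMR, and a match describes letters in the window and no binding. CKS1B and CKS2, which encode the small paralogous subunits that dock onto CDK1, each carried 3 CCAAT boxes and 1 CHR in the 150 bases shown.

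The deposited normalized counts summed to 19133288 to 33352246 per library. They are scaled to an equal upper quartile, so a level is relative to the gene at the upper quartile of its library. The number of reads behind a value is not given. The sums were 19539208 and 19133288 in the siNC libraries at 0 h and 33271392 and 31902436 at 6 h. A gene called higher as deposited has therefore not been shown to gain on the summed mRNA of its library. Per mass of total RNA, judged by the added spike-in RNA, the median log2 change of all genes from 0 to 6 h was -0.65 in siNC and -0.50 in siCPSF6. Against the deposited scale the spike-ins rose by 0.96 (log2) over that time in siNC and by 0.86 in siCPSF6. That rise is not the size of the mRNA loss, because the summed deposited counts rose too. Replicates differed by up to 0.37 in the spike-in factor. CPSF6 itself had normalized counts of 2082 to 3469 in the 6 siNC libraries and 674 to 810 in the 6 siCPSF6 libraries, without overlap. All 9 hepatocyte markers had a mean TPM of at least 1. Of 11 stromal, endothelial and immune markers sought, 7 had an entry, and COL1A2, DCN, PTPRC and CD3E had none. Of the 7, 3 had a mean TPM of at least 1. The summed TPM of the 7 was 370 to 961 in siNC and 256 to 512 in siCPSF6. Their mean normalized counts were 1.2 for VWF, 2.3 for CDH5, 45.8 for COL1A1, 53.7 for PECAM1, 110.2 for CD14, 335.2 for PDGFRB and 15461.8 for LYZ. Of the 5 that were tested, 4 in siNC and 5 in siCPSF6 were higher at 6 h as deposited; the part of these markers in the results was not tested. In bulk RNA, fewer cells in G2 or mitosis and less of these mRNAs per cell cannot be told apart.

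The 42 members were well expressed. Their mean normalized counts ran from 281.2 for NDC80, which links microtubules to the kinetochore, to 10830.5 for TOP2A, the topoisomerase that untangles sister chromatids. Per length, the mean TPM in siNC cells at 0 h ran from 6.08 for CENPE, a kinetochore motor, over a median of 39.8 to 261.39 for CKS2. Together the members made up 0.509% and 0.517% of the normalized counts in the siNC libraries at 0 h and 0.429% and 0.44% in the siCPSF6 libraries at 0 h. After 6 h these shares were 0.245% and 0.285% in siNC and 0.224% and 0.239% in siCPSF6, so that the share was lower in every 6 h library than in any 0 h library.

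Before actinomycin D, 18 of the 42 genes were lower in siCPSF6 than in siNC cells and 3 were higher (adjusted p under 0.05 from limma, on log2(normalized count + 1), Benjamini-Hochberg over 12939 genes). Of all genes tested, 21.1% were called lower and 21.8% higher. The median difference of the members was -0.19 on the log2 scale, against 0.002 over all genes. The lower members were HMMR, ANLN, TOP2A, KIF2C, NUF2, CDK1, CKS2, PTTG1, CCNB1, CCNA2, CDC20, CDC25B, CDC25C, AURKA, KIF11, NDC80, NUSAP1 and PRC1; the higher ones were CENPF, BUB1B and FOXM1. On the spike-in scale 16 of the 18 were lower and none of the 42 was higher, against 19.7% and 8.93% of all genes. With the replicate number as a term, 5 members were higher. Shares of all genes were not counted with that term, nor for the fits without a library given below.

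HMMR (chr5:163460203-163491945 on the + strand of hg38, GENCODE release 29), which encodes a spindle protein that was first described as a hyaluronan receptor, differed most. Its normalized counts were 1238 and 1102 in siNC and 437 and 438 in siCPSF6 at 0 h, with no overlap. The log2 difference was -1.42 (SE 0.10, limma adjusted p = 1.3e-07), a fold of 0.375. The same gap was present later: 1194 and 1274 against 406 and 431 at 3 h, and 1131 and 1343 against 368 and 420 at 6 h. HMMR overlaps HMMR-AS1 on the opposite strand, and since the use of strand in counting is not given, reads of both genes cannot be told apart. Of the 42 members, 11 were overlapped on their own strand by another annotated gene, 15 on the opposite strand only and 16 by none. Among the overlapped members, ANLN, KIF2C and PLK1 had overlaps on the opposite strand only, and PRC1 and KIF4A had them on both.

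ANLN, the anillin scaffold of the cytokinetic ring, had 2725 and 2612 in siNC and 1640 and 1563 in siCPSF6 at 0 h. Its difference was -0.74 (SE 0.08, limma adjusted p = 5.3e-06). TOP2A had 12411 and 11452 against 8852 and 8688, a difference of -0.44 (SE 0.07, limma adjusted p = 0.00024). Both genes were apart from the controls in each pair of libraries.

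KIF2C, a kinesin that shortens microtubules at centromeres, had 2151 and 2232 in siNC and 1606 and 1626 in siCPSF6 at 0 h (log2 difference -0.44, SE 0.07, limma adjusted p = 0.00026). NUF2, the partner of NDC80 in the kinetochore, had 794 and 754 against 586 and 571 (-0.42, SE 0.09, limma adjusted p = 0.0014). CDK1, the kinase of mitotic entry, had 2069 and 2149 against 1552 and 1615 (-0.41, SE 0.10, limma adjusted p = 0.0049). HMMR, ANLN, TOP2A, KIF2C, NUF2 and CDK1 were the 6 members that stayed lower under every alternative tried. The number of lower members was 9 and 11 without siNC 0 h replicate 1 or 2, and 10 and 8 without siCPSF6 0 h replicate 1 or 2. Of the other 12 lower calls, AURKA, CCNA2, CDC20 and NDC80 were lost without any 1 of the 4 libraries, CCNB1, KIF11 and NUSAP1 without 3 of them, CDC25B, CKS2, PRC1 and PTTG1 without 2, and CDC25C without 1, siCPSF6 0 h replicate 2.

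**Figure D1:**
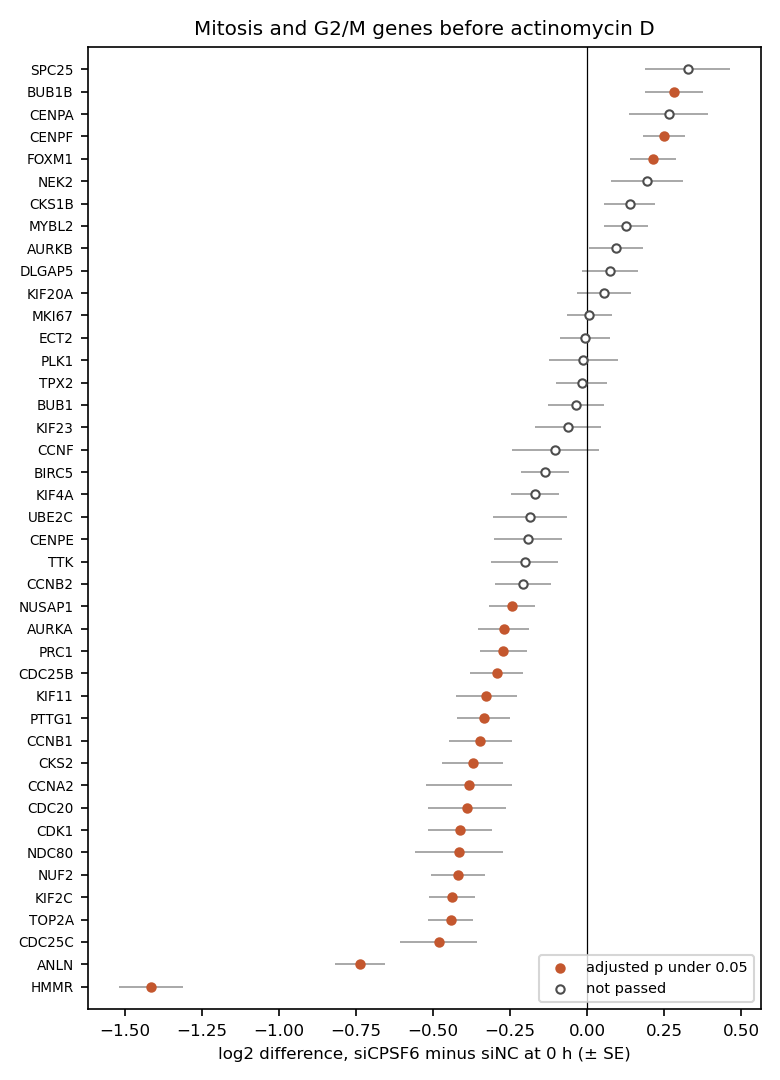
Log2 difference in log2(normalized count + 1) between siCPSF6 and siNC cells at 0 h for the 42 genes (points, group means of 2 libraries each; bars, SE); filled points passed an adjusted p of 0.05. The 18 filled points on the left run from -0.24 for NUSAP1 to -1.42 for HMMR, and the 3 on the right lie between 0.21 and 0.28.

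The 3 higher members differed little in size. CENPF, a large kinetochore protein, had 2697 and 2442 in siNC and 3026 and 3073 in siCPSF6 (0.25, SE 0.07, limma adjusted p = 0.0073). BUB1B, the checkpoint protein BUBR1, had 1556 and 1527 against 1836 and 1914 (0.28, SE 0.09, limma adjusted p = 0.024); it shares its strand with the readthrough gene BUB1B-PAK6 and its count is uncertain. FOXM1 had 2104 and 2324 against 2406 and 2731 (0.21, SE 0.07, limma adjusted p = 0.033). Scaled to the spike-ins, their differences were 0.12, 0.15 and 0.08, with limma adjusted p-values of 0.62, 0.56 and 0.74. As deposited, CENPF did not pass without siNC 0 h replicate 2 (0.18, limma adjusted p = 0.11), FOXM1 without siNC 0 h replicate 1 (0.14, limma adjusted p = 0.26) or siCPSF6 0 h replicate 2 (0.12, limma adjusted p = 0.31), and BUB1B without any 1 of the 4 libraries (0.25 to 0.31, limma adjusted p = 0.066 to 0.13). The number higher was 1 without siNC 0 h replicate 1, siNC 0 h replicate 2 or siCPSF6 0 h replicate 2. Of the most abundant members that did not pass, TPX2, which activates Aurora A, differed by -0.02 (SE 0.08), the proliferation marker MKI67 by 0.01 (SE 0.07) and MYBL2 by 0.13 (SE 0.07).

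By role, 6 of 11 genes of mitotic entry (54.5%) were lower at 0 h and 1 was higher, where 21.1% of all genes were lower and 21.8% higher. Of 7 mitotic kinases and checkpoint genes, 1 (AURKA) was lower and 1 (BUB1B) higher. Of 3 genes of anaphase onset, CDC20, which activates the anaphase-promoting complex, and PTTG1, the securin, were lower. Among 7 centromere and kinetochore genes 2 were lower and 1 higher, and among 12 motors, spindle and cytokinesis genes 6 (50%) were lower and none higher. The kinase and kinetochore counts, 14.3% and 28.6% lower and 14.3% higher in each, lie near the shares of all genes. TOP2A was lower and MKI67 did not pass.

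After 6 h in actinomycin D the members spread widely around the other mRNAs, and of the roles the kinases and checkpoint genes had the lowest median change in both arms. In siNC, 25 of 42 were lower than at 0 h and 7 higher, against 30.7% and 48.6% of all genes; in siCPSF6, 25 were lower and 8 higher, against 27.6% and 49.8%. The median change was -0.37 in siNC and -0.40 in siCPSF6, where the medians of all genes were 0.31 and 0.35 on the deposited scale. As deposited, the 2 arms gave 22 shared lower calls and 6 shared higher calls (CKS1B, FOXM1, KIF4A, MYBL2, PRC1 and PTTG1). The share of all genes called alike in both arms was not counted, for these or for the joint calls below. Of the higher calls, PRC1, PTTG1 and NUF2 in siCPSF6 and ECT2 in siNC were called lower with spike-in scaling. In siCPSF6 the higher calls of PRC1 and PTTG1 were lost with median-ratio scaling (-0.09 and -0.06) and without limma's trend and robust settings. As deposited, PRC1 was at 0.11 there without siCPSF6 6 h replicate 2, and PTTG1 at 0.10 without siCPSF6 0 h replicate 2. With TPM, 2 calls in siNC and 3 in siCPSF6 turned to the other direction. The mean TPM of PTTG1 in siNC was 203.52 at 0 h and 172.36 at 6 h. With spike-in scaling 36 members were lower and 1 higher in siNC, against 57.7% and 10.2% of all genes, and 37 were lower and none higher in siCPSF6, against 52.4% and 5.83%. There the median changes were -1.33 and -1.25, with all genes at -0.65 and -0.50. With median-ratio scaling 30 were lower and 6 higher in siNC, against 37.7% and 38.8% of all genes, and 33 and 5 in siCPSF6, against 35.4% and 37.3%. With TPM 37 were lower and 2 higher in siNC, against 53.4% and 16.4%, and 37 and 1 in siCPSF6, against 48.9% and 14.4%.

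**Figure D2:**
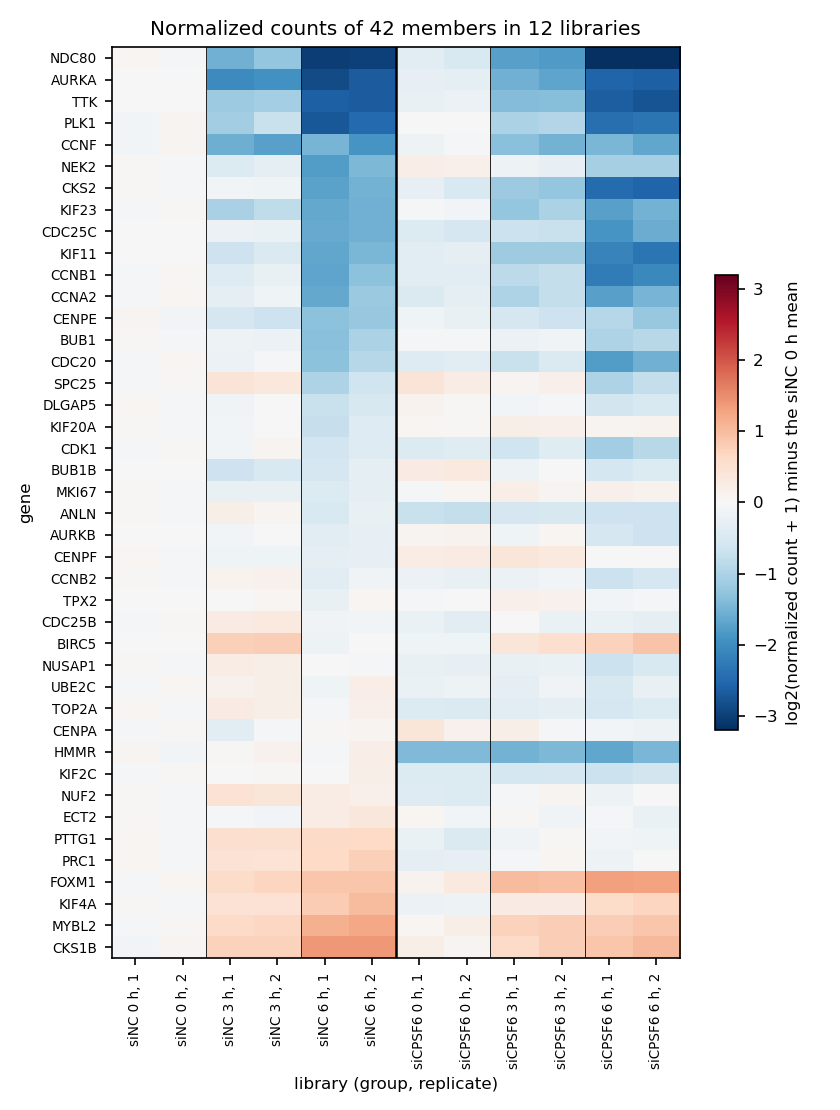
Normalized counts of the 42 genes (vertical axis, ordered by the 6 h change in siNC) in the 12 libraries (horizontal axis), as log2(normalized count + 1) minus the mean of the 2 siNC libraries at 0 h. NDC80, AURKA, TTK and PLK1 at the top are dark blue at 6 h in both arms, MYBL2 and CKS1B at the bottom are red, and HMMR is blue in all 6 siCPSF6 libraries and near white in all 6 siNC libraries.

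All 7 mitotic kinases and checkpoint genes (AURKA, AURKB, PLK1, NEK2, BUB1, BUB1B and TTK) were lower at 6 h in both arms, as deposited and on the spike-in scale. Their median change as deposited was -1.62 in siNC and -1.25 in siCPSF6. AURKA (chr20:56369389-56392337, - strand), the Aurora kinase of the spindle poles, had 4375 and 4359 in siNC at 0 h, 1066 and 1138 at 3 h and 596 and 685 at 6 h. In siCPSF6 it had 3655 and 3582, then 1508 and 1359, then 743 and 713. Its 6 h change was -2.77 (SE 0.08, limma adjusted p = 7.5e-13) in siNC and -2.31 (SE 0.08, limma adjusted p = 1.3e-11) in siCPSF6. AURKB, the Aurora kinase of the centromere, changed less than AURKA: 1090 and 1126 at 0 h against 879 and 916 at 6 h in siNC, and 1172 and 1193 against 759 and 695 in siCPSF6. On the spike-in scale the mean left of AURKB at 6 h was 41.7% in siNC and 33.8% in siCPSF6.

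PLK1, the Polo-like kinase, had 6126 and 6938 at 0 h, 3012 and 3977 at 3 h and 999 and 1156 at 6 h in siNC (6 h change -2.60, SE 0.11, limma adjusted p = 8.4e-11). In siCPSF6 it had 6464 and 6460, 3257 and 3389, and 1217 and 1288. TTK, the checkpoint kinase MPS1, had 773 and 757 at 0 h and 124 and 119 at 6 h in siNC, and 653 and 676 against 122 and 111 in siCPSF6 (-2.65 and -2.50, SE 0.11 each, limma adjusted p = 1.5e-11 and 8.1e-11). Scaled to the spike-ins, the mean left at 6 h in siNC was 7.58% of the 0 h level for AURKA, 8.53% for PLK1 and 8.15% for TTK, and in siCPSF6 11.1%, 10.7% and 9.64%.

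Genes of the same structure parted. In the NDC80 complex of the kinetochore, NDC80 had 670 and 606 at 0 h and 78 and 80 at 6 h in siNC, the lowest share left of all members on the spike-in scale (6.37%; 6.99% in siCPSF6). Its change as deposited was -3.00 (SE 0.14, limma adjusted p = 4.4e-11) in siNC and -2.96 (SE 0.14, limma adjusted p = 1.7e-10) in siCPSF6. NUF2, its partner, had 794 and 754 at 0 h and 912 and 865 at 6 h in siNC, with 58.9% left on the spike-in scale, and SPC25 had 298 and 318 against 154 and 196, with 29.5% left. NDC80 overlaps the pseudogene KATNBL1P3 and NUF2 overlaps RGS5, in each case on the opposite strand.

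The CDK1 docking subunits parted as well. CKS1B (chr1:154974653-154979249, + strand) had 1608 and 1830 at 0 h, 2876 and 2858 at 3 h and 4518 and 4505 at 6 h in siNC, a change over 6 h of 1.40 (SE 0.08, limma adjusted p = 4.2e-10); it was the only member higher on the spike-in scale, by 0.43 (limma adjusted p = 0.015), in siNC. In siCPSF6 it went from 1946 and 1832 to 3152 and 3551, 0.83 as deposited (SE 0.08, limma adjusted p = 2.3e-07) and -0.04 on the spike-in scale, where it did not pass. CKS2 (chr9:89311198-89316703, + strand) had 1498 and 1423 at 0 h, 1376 and 1319 at 3 h and 443 and 513 at 6 h in siNC (-1.61, SE 0.10, limma adjusted p = 6.8e-10). In siCPSF6 it had 1220 and 1043, 656 and 623, and 266 and 247 (-2.13, SE 0.10, limma adjusted p = 1.5e-10). The CKS2 libraries of the arms did not overlap at any of the 3 times, and each gene has an annotated microRNA within it on its own strand.

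The mitotic cyclins all fell by 6 h. CCNB1 had 4781 and 4958 at 0 h, 3665 and 4098 at 3 h and 1518 and 1954 at 6 h in siNC, and 3886 and 3772, 2738 and 2891, and 1032 and 1164 in siCPSF6. CCNA2 had 2743 and 2961, then 2279 and 2579, then 908 and 1241 in siNC. CCNF, an F-box protein of G2, had the shortest course as deposited: 705 and 784 at 0 h, 250 and 224 at 3 h and 266 and 199 at 6 h in siNC. On that scale the 6 h libraries lay on both sides of the 3 h ones. On the spike-in scale 20.1% and 19.3% of the 0 h level of CCNF was left at 3 h in siNC, and 17% and 14.8% at 6 h. In siCPSF6 these shares were 25.6% and 29.2%, then 20.9% and 19.2%. The step from 3 to 6 h was not tested. CCNB2 was lower in both arms, but with less change, at 1395 and 1304 against 1052 and 1240 in siNC, where it did not pass without siNC 0 h replicate 1 (-0.19, limma adjusted p = 0.14) or siNC 6 h replicate 1 (-0.12, limma adjusted p = 0.26). CCNB2 and CCNF share their strand with other annotated genes, and CCNA2 overlaps EXOSC9 on the opposite strand.

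Both transcription factors of the G2/M programme were higher at 6 h as deposited and did not pass on the spike-in scale. FOXM1 had 2104 and 2324 at 0 h and 4118 and 4091 at 6 h in siNC, 0.89 as deposited (SE 0.07, limma adjusted p = 2.4e-08) and -0.07 on the spike-in scale. In siCPSF6 it went from 2406 and 2731 to 5540 and 5423, 1.10 (SE 0.07, limma adjusted p = 3.8e-09) and 0.24. MYBL2 had 4314 and 4602 at 0 h and 9821 and 10579 at 6 h in siNC, 1.19 (SE 0.07, limma adjusted p = 3.7e-10) and 0.23, and 4648 and 5084 against 7705 and 8181 in siCPSF6, 0.71 (SE 0.07, limma adjusted p = 1.9e-07) and -0.15. FOXM1 overlaps ITFG2 and RHNO1 on the opposite strand.

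Among 12 genes of motors, spindle and cytokinesis, 5 were lower in each arm, and 3 in siNC and 2 in siCPSF6 were higher; 5 of 12 is 41.7%, against 30.7% and 27.6% of all genes lower, and 3 and 2 are 25% and 16.7%, against 48.6% and 49.8% higher. KIF4A, a chromosome-bound kinesin, had 1553 and 1463 at 0 h and 2638 and 3052 at 6 h in siNC; its change was 0.91 as deposited (SE 0.08, limma adjusted p = 2.5e-08) and -0.05 on the spike-in scale, and in siCPSF6 0.81 and -0.05. PRC1, which bundles microtubules at the midzone and binds KIF4A, changed by 0.71 in siNC (SE 0.08, limma adjusted p = 3.9e-07), and by -0.25 on the spike-in scale. KIF11, the motor that pushes the spindle poles apart, had 1788 and 1740 at 0 h and 556 and 635 at 6 h in siNC, and 1366 and 1447 against 400 and 350 in siCPSF6 (-1.91, SE 0.10, limma adjusted p = 3.2e-10). The abundant TOP2A and TPX2 did not pass as deposited in either arm (between -0.10 and 0.05) and were lower on the spike-in scale in both (between -1.06 and -0.90).

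**Figure D3:**
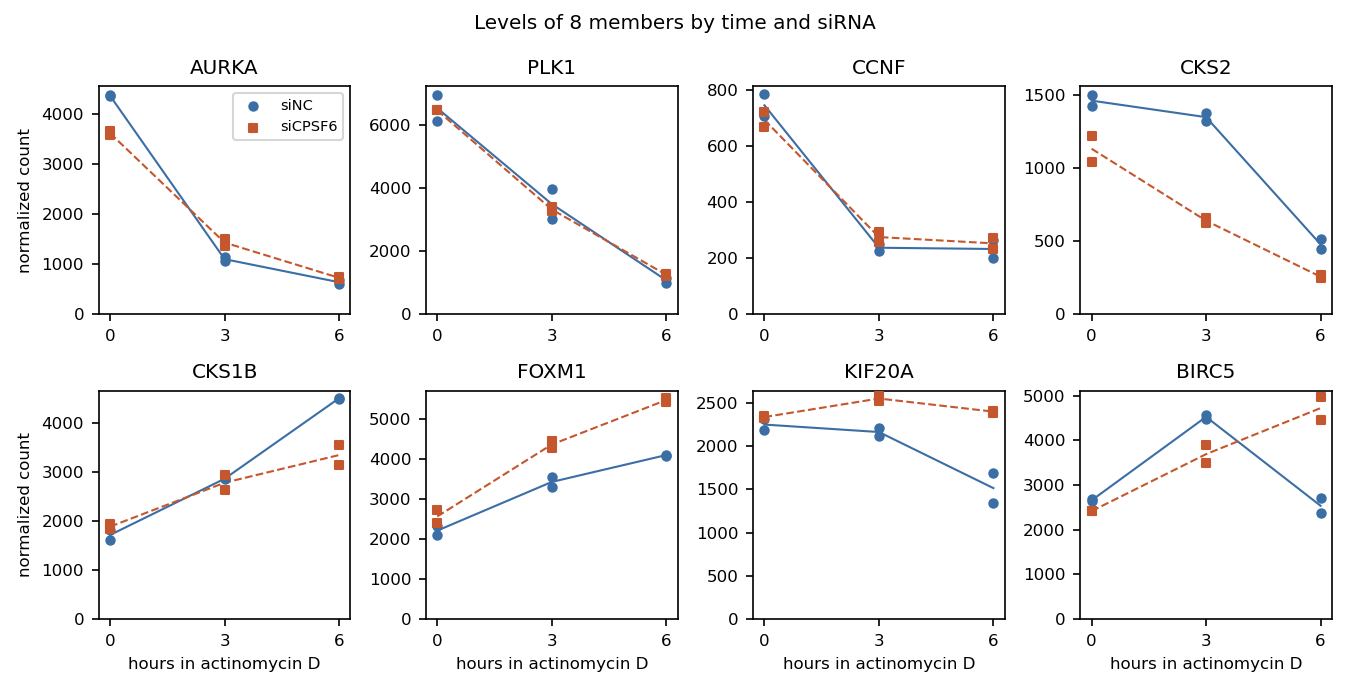
Normalized counts of 8 genes (vertical axes from 0) against hours in actinomycin D (horizontal axes) for siNC (circles, solid line) and siCPSF6 (squares, dashed line); points are libraries and lines join the means of 2. AURKA and PLK1 fall at each step, CCNF is level after 3 h on this deposited scale, and CKS2 in siCPSF6 is below its siNC level at all 3 times. BIRC5 at 6 h lies at 4463 and 4975 in siCPSF6 and 2368 and 2702 in siNC.

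By 3 h, 12 members were lower and 12 higher in siNC, against 25.7% and 45.8% of all genes, and 13 were lower and 9 higher in siCPSF6, against 22.9% and 43.6%. On the spike-in scale 33 were lower in siNC and 32 in siCPSF6, against 48.8% and 38.4% of all genes, and none was higher in either, against 4.13% and 2.94%. The 11 members lower at 3 h in both arms were AURKA, BUB1B, CCNB1, CCNF, CENPE, KIF11, KIF23, NDC80, NEK2, PLK1 and TTK, and all 11 were also lower at 6 h in both. The share of all genes with such joint calls was not counted, here or for the next list. As deposited, another 9 were lower at 6 h in both arms and at 3 h in neither: AURKB, BUB1, CCNB2, CDC20, CDC25C, CDK1, CENPF, DLGAP5 and SPC25. With spike-in scaling 8 of these 9 were lower at 3 h in both arms and SPC25 was lower in siCPSF6 (-0.74, limma adjusted p = 0.0018), so the later group was not seen on that scale. With the replicate number as a term, BUB1 (-0.18, limma adjusted p = 0.042), CENPF (-0.14, limma adjusted p = 0.048) and CCNA2 (-0.23, limma adjusted p = 0.0072) were also lower at 3 h in siNC, and CDC20 (-0.21, limma adjusted p = 0.017) in siCPSF6, where CDC25B, MKI67 and TPX2 were also higher as deposited. CDC25B, NUSAP1 and TOP2A were called higher at 3 h in siNC as deposited (0.30, 0.21 and 0.22) and lower with spike-in scaling (-0.40, -0.48 and -0.47). Without 1 of the libraries compared at 3 h, BUB1B did not pass in siCPSF6 (-0.27 without siCPSF6 3 h replicate 1, limma adjusted p = 0.052), CCNB1 did not in siNC (-0.30 without siNC 0 h replicate 2 and -0.25 without siNC 3 h replicate 1), and NEK2 did not in siNC (-0.32 without siNC 0 h replicate 1 and -0.30 without siNC 3 h replicate 1) or in siCPSF6 (-0.35 without siCPSF6 3 h replicate 2).

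AURKA had the largest 3 h change in siNC, -1.99 (SE 0.08, limma adjusted p = 1e-10), and changed by -1.34 in siCPSF6 (SE 0.08, limma adjusted p = 7.9e-09). CCNF changed by -1.65 and -1.33, NDC80 by -1.38 and -1.35, TTK by -1.13 and -1.18 and KIF23, a motor of the central spindle, by -0.93 and -1.06, all past the threshold. FOXM1, MYBL2, BIRC5 and CKS1B were higher in both arms as deposited, by 0.56 to 0.77, and on the spike-in scale all 4 lay between -0.06 and 0.23 and did not pass. PTTG1 was higher by 0.53 in siNC as deposited (limma adjusted p = 5.4e-05) and at -0.16 on the spike-in scale, and KIF4A was higher by 0.42 in siCPSF6 (limma adjusted p = 0.00019) and at -0.11 there.

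The question of whether silencing changed the loss of these mRNAs is addressed by the difference between the arms in the 6 h change. Of the 42 members, 5 had a higher and 8 a lower 6 h change in siCPSF6, against 12% and 12.4% of all genes. The median of the members was -0.04 and that of all genes -0.03. With spike-in scaling 2 members passed, both higher, and none was lower, against 6.89% and 1.84% of all genes. With the replicate number as a term, 13 members were lower. Shares of all genes were not counted with that term, nor for the fits without a library that follow. As deposited, 3 members were called lower without siNC 0 h replicate 2, 3 without siCPSF6 0 h replicate 1 and 5 without siCPSF6 6 h replicate 2.

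BIRC5 (chr17:78214186-78225636, + strand; no annotated overlap), the survivin subunit of the chromosomal passenger complex, differed most. In siNC its normalized counts were 2682 and 2631 at 0 h, 4483 and 4563 at 3 h and 2368 and 2702 at 6 h. In siCPSF6 they were 2415 and 2416, 3492 and 3887, and 4463 and 4975. The 6 h change was -0.07 (SE 0.08) in siNC and 0.96 (SE 0.08, limma adjusted p = 2.4e-08) in siCPSF6, and the difference of 1.03 (SE 0.11) passed with a limma adjusted p of 1.8e-05. On the spike-in scale the difference was 1.14 (limma adjusted p = 5e-04), with 49.3% left at 6 h in siNC (42.4% and 56.2% in the 2 libraries) and 108% in siCPSF6 (98.8% and 117%).

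KIF20A, a kinesin of the central spindle that helps place the passenger complex, had 2306 and 2188 at 0 h, 2114 and 2208 at 3 h and 1339 and 1687 at 6 h in siNC. In siCPSF6 it had 2350 and 2318, 2575 and 2521, and 2384 and 2409. The difference in the 6 h change was 0.62 (SE 0.12, limma adjusted p = 0.0025) and 0.72 on the spike-in scale (limma adjusted p = 0.037), where 34.9% was left in siNC and 56.6% in siCPSF6. BIRC5 and KIF20A were the 2 members whose difference passed under every alternative tried. KIF20A overlaps BRD8 and CDC23 on the opposite strand.

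The other higher differences were MKI67 (0.49, SE 0.10, limma adjusted p = 0.0031), AURKA (0.46, SE 0.12, limma adjusted p = 0.011) and ANLN (0.44, SE 0.11, limma adjusted p = 0.012), whose limma adjusted p-values on the spike-in scale were 0.068, 0.11 and 0.13. The lower ones among the named genes were CKS1B (-0.57, SE 0.12, limma adjusted p = 0.0027), CKS2 (-0.52, SE 0.14, limma adjusted p = 0.015), PRC1 (-0.51, SE 0.11, limma adjusted p = 0.0031), MYBL2 (-0.49, SE 0.10, limma adjusted p = 0.0025) and ECT2, the exchange factor that starts the cleavage furrow (-0.42, SE 0.12, limma adjusted p = 0.016). With spike-in scaling these 5 lay between -0.47 and -0.32 with limma adjusted p-values of 0.21 to 0.43. PTTG1, AURKB and NUSAP1 were the remaining lower calls, at -0.40, -0.40 and -0.34. CKS2 did not pass without siCPSF6 0 h replicate 1 (-0.41, limma adjusted p = 0.089) or siNC 0 h replicate 2 (-0.48, limma adjusted p = 0.064), and ECT2 did not without either of these or siCPSF6 6 h replicate 2 (-0.39 to -0.35, limma adjusted p = 0.062 to 0.084). PTTG1, AURKB and NUSAP1 each failed to pass without 1 or another of 5 (PTTG1) or 6 (AURKB, NUSAP1) of the 8 libraries compared, at -0.41 to -0.27, -0.42 to -0.34 and -0.37 to -0.24. TOP2A (-0.10), TPX2 (0.06) and FOXM1 (0.20) did not pass.

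**Figure D4:**
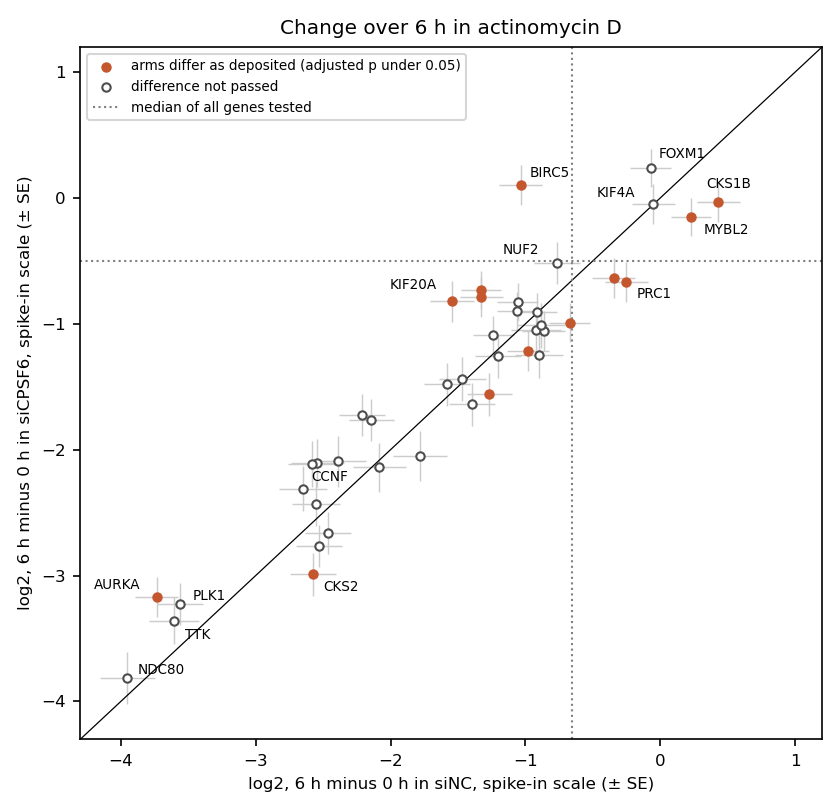
Log2 change from 0 to 6 h on the spike-in scale in siNC (horizontal axis) and siCPSF6 (vertical axis) for the 42 genes (points; bars, SE), with the line of equal change (solid) and the medians of all genes tested, -0.65 and -0.50 (dotted). Filled points are the 13 genes whose difference between the arms passed on the deposited scale; BIRC5 lies farthest above the line, at -1.03 and 0.10.

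The further genes of the G2/M machinery, 84 in 6 lists, were lower in 26 (31%) and higher in 8 (9.52%) cases at 0 h, against 21.1% and 21.8% of all genes. At 6 h 38 (45.2%) were lower and 33 (39.3%) higher in siNC, against 30.7% and 48.6%, and 41 (48.8%) were lower and 33 (39.3%) higher in siCPSF6, against 27.6% and 49.8%. The same shares of all genes apply to the 6 h counts of each list below. Among 16 spindle, kinesin and cytokinesis genes, 12 were lower in siNC and 13 in siCPSF6, or 75% and 81.2% against 30.7% and 27.6% of all genes, with medians of -0.67 and -0.69 against 0.31 and 0.35; CDCA8 (borealin), which sits with BIRC5 and AURKB in the passenger complex, changed by -2.24 (SE 0.09) and -2.02 (SE 0.09). Of 25 kinetochore and checkpoint genes, 9 were lower and 11 higher in siNC and 10 each way in siCPSF6. SGO2, a protector of centromere cohesion, changed by -2.33 in siNC, and MAD2L1, the checkpoint protein MAD2, by 0.94 in siCPSF6 (0.08 on the spike-in scale).

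Of 15 genes of the anaphase-promoting complex, 8 (53.3%) were higher and 5 (33.3%) lower in each arm, near the shares of all genes (48.6% and 49.8% higher, 30.7% and 27.6% lower). FZR1 (CDH1), the activator that follows CDC20, changed by -2.37 (SE 0.11) in siNC and -1.73 (SE 0.11) in siCPSF6, and the subunit ANAPC15 by 2.13 (SE 0.09) in siNC, or 1.17 on the spike-in scale. Among 9 genes of the entry switch, WEE1, the kinase that holds CDK1 inactive, changed by -3.58 (SE 0.14) in siNC and -3.52 (SE 0.14) in siCPSF6. ENSA, an inhibitor of the phosphatase that opposes CDK1, changed by 1.76 in siNC (0.79 on the spike-in scale) and 0.85 in siCPSF6 (-0.01), and was higher at 0 h in siCPSF6 by 0.88 (SE 0.08, limma adjusted p = 7.8e-07). All changes given for these genes passed at an adjusted p of 0.05 as deposited.

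Of 8 condensin genes, 5 (62.5%) were higher and 3 (37.5%) lower at 6 h in each arm, against 48.6% and 49.8% higher and 30.7% and 27.6% lower of all genes; NCAPG changed by -1.43 in siNC and -1.82 in siCPSF6. Of 11 MuvB, DREAM and E2F partners, 5 (45.5%) were higher and 5 (45.5%) lower in each arm. LIN9, a core subunit of MuvB, changed by -2.57 in siNC and -1.66 in siCPSF6, and TFDP1, the partner of the E2F factors, by 1.29 and 0.97, or 0.33 and 0.11 on the spike-in scale. In the difference between the arms, 5 of the 84 (5.95%) were higher and 14 (16.7%) lower, against 12% and 12.4% of all genes. INCENP, the scaffold of the passenger complex, was at -0.93 (SE 0.15, limma adjusted p = 0.00061) and ENSA at -0.91 (SE 0.11, limma adjusted p = 5.2e-05), while MAD2L1 was at 0.65 (SE 0.10, limma adjusted p = 0.00045). On the spike-in scale these differences were -0.823, -0.805 and 0.75, and whether they passed there is not given here.

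The ratio of normalized count to TPM follows the effective transcript length used for a gene, and its log2 value, centred on each library's median gene, served as an apparent length. Averaged over the 3 times, it was longer in siCPSF6 for 29 of the 42 members and shorter for none, against 41.5% and 10% of 11827 genes; without siCPSF6 3 h replicate 2, 1 member was shorter. The median of the members was 0.08 and that of all genes 0.07. FOXM1 was longer by 0.15 (SE 0.01, limma adjusted p = 0.00021), KIF11 by 0.08 (SE 0.01, limma adjusted p = 0.00022), and MYBL2, CCNA2 and TPX2 by 0.08 each (limma adjusted p = 0.00021). The test was for any shift and not for a shift beyond that of all genes. Above the median of all genes, FOXM1 lay by 0.079, KIF11 by 0.013 and MYBL2, CCNA2 and TPX2 by 0.008 each. HMMR, at 0.18 (SE 0.04, limma adjusted p = 0.0082), had the highest value and did not pass with the 0 h libraries alone (0.14, limma adjusted p = 0.15). MKI67 (-0.01), CCNB1 (0.03) and CENPF (0.04) did not pass. With the 0 h libraries alone CENPF was shorter, at -0.25, and 19 members were longer. Shares of all genes were not counted for that contrast or for fits without a library.

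Features of 1 GENCODE transcript per gene, chosen by its principal-isoform rank and then by coding length, were read for all 42 members. The median 3′ UTR was 577.5 bases, against 980 over 11679 genes, and 17 of 42 (40.5%) had no ATTTA in it, against 33.4%. The share without ATTTA was not adjusted for 3′ UTR length. Across the 42 members the Spearman correlation of the 6 h change in siNC was 0.11 with 3′ UTR length, -0.07 with the number of ATTTA and -0.21 with the number of TGTA. Across all genes it was -0.22, -0.22 and -0.26. In siCPSF6 the same 3 correlations were 0.23, -0.04 and -0.19 in the members and -0.19, -0.22 and -0.26 across all genes. The genes share libraries and are not independent, so these are descriptions without a test.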

How the data were processed

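The deposited normalized counts are a score: per the submitters' processing notes reads were processed with STAR and RSEM on hg38, and the values of the authors are whole numbers whose upper quartile was 660.5 or 661 in each library, so they are scaled and are not raw counts. The authors also deposited TPM over the same 22235 entries, of which 87 are spike-ins and 22148 genes. Per the labels' protocols, 5 µg of total RNA received ERCC spike-ins before a directional kit. Not given in the sources used here: tool versions, the annotation, and the use of strand in counting. Because the values are not raw counts, models for counts were not used.

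Of the genes, 12939 had a mean of at least 20 and were tested with limma 3.58.1 (R 4.3.3) with its trend and robust options. The fit used log2(normalized count + 1) and held 6 groups with 6 residual degrees of freedom and Benjamini-Hochberg adjustment within a comparison (threshold 0.05). Fold changes on this scale understate those of low genes. The procedure was tested on simulated data. Spike-in scaling divided each library by its summed spike-in level; it sets values per mass of total RNA and not per cell. Apparent length, log2 of normalized count over TPM, was fitted for 11827 genes with a mean TPM of at least 1. The depth in reads is not given, so no counting interval is printed. All groups have 2 replicates, described as biological.

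Same-numbered replicates deviated together (correlation 0.108 to 0.236 over 15 pairs of groups), so the numbers were taken to pair the libraries, from the values and not the labels. The comparisons printed have no replicate term. Some counts that it moves, and the calls that it adds at 3 h, are given beside them. It also added CCNB2 and KIF4A as lower at 0 h, and CENPE as higher in the difference between the arms. At 6 h it added NUF2 as higher in siNC and UBE2C as lower in siCPSF6. Replicate correlations were 0.9911 to 0.9931, and no library was a copy of another.

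For each comparison up to 5 members called higher, 5 called lower (smallest p) and 3 not passed (largest mean) are named with statistics, with 1 gene each way of the further lists, and other members by levels and counts. Members and lists were chosen with earlier results of these data known. Symbols matched 22069 of 22148 identifiers; positions, overlaps and transcripts are from GENCODE release 29 (hg38), which may not be the annotation used by the authors, and promoters from RefSeq. The alternatives were pseudocounts of 0.1 and 10, no filter, a mean of at least 100, spike-in and median-ratio scaling, TPM, a replicate term, limma without trend and robust settings, only the groups of the comparison, and each of the 12 libraries left out.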

Additional observations from a re-analysis of the deposited data

Results flagged for a closer look

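For 13 of the 42 genes the 6 h change differed between siCPSF6 and siNC cells by limma's test of the difference itself (siCPSF6 minus siNC, log2 of normalized counts, adjusted over 12939 genes). Of the 42 members 11.9% were higher and 19% lower, against 12% and 12.4% of all genes. Among the 13, the positive ones were BIRC5 at 1.03, KIF20A at 0.62, MKI67 at 0.49, AURKA at 0.46 and ANLN at 0.44. The negative ones were NUSAP1 at -0.34, PTTG1 at -0.40, AURKB at -0.40, ECT2 at -0.42, MYBL2 at -0.49, PRC1 at -0.51, CKS2 at -0.52 and CKS1B at -0.57. On the spike-in scale BIRC5 (1.14) and KIF20A (0.72) passed and the other 11 did not. Without each library in turn, ANLN, AURKA, BIRC5, CKS1B, KIF20A, MKI67, MYBL2 and PRC1 passed in every fit, while AURKB, CKS2, ECT2, NUSAP1 and PTTG1 did not in at least 1.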

How the results depend on the processing

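Pseudocounts of 0.1 and 10 and a mean of at least 100 kept all calls of members in the comparisons of levels for which they were run. At 0 h the number of members higher was 0 with spike-in scaling, 1 with TPM, 5 with the replicate block, 1 without trend and robust settings, 5 with only the groups of the comparison and 1 to 4 without each library in turn; the number lower was 8 to 20 without each library. At 3 h none was higher with spike-in scaling or TPM in either arm. The numbers lower with spike-in scaling, median-ratio scaling and TPM were 33, 22 and 31 in siNC and 32, 24 and 32 in siCPSF6. With spike-in scaling 48.8% and 38.4% of all genes were lower at 3 h. For median-ratio scaling and TPM, shares of all genes were counted at 6 h only, and for the other alternatives they were not counted. Those counts have no measure beside them. At 6 h the numbers higher were 1 and 2 in siNC with spike-in scaling and TPM, and 0, 5 and 1 in siCPSF6 with spike-in scaling, median-ratio scaling and TPM. For the difference between the arms, 2 and 3 were higher and 0 and 1 lower with spike-in scaling and TPM; 13 were lower with the replicate block, 4 without trend and robust settings and 3 to 11 without each library. The replicate block, which uses the pairing of the numbers, lost none of the calls of levels and 1 of the 29 calls of length. With the 0 h libraries alone 19 members were longer and 1 shorter; without each library 0 to 1 were shorter.

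On the spike-in scale the sign differed from the deposited one for 5 of the 42 members at 0 h, 17 in siNC and 13 in siCPSF6 at 3 h, 11 and 10 at 6 h, and 4 in the difference between the arms; called higher as deposited and lower there were 3 in siNC at 3 h (CDC25B, NUSAP1, TOP2A), 1 in siNC at 6 h (ECT2) and 3 in siCPSF6 at 6 h (NUF2, PRC1, PTTG1). Among the genes named with statistics, those that turned in the time course were as follows. With spike-in scaling at 3 h, MYBL2 was at -0.047, FOXM1 at -0.058, PTTG1 at -0.16 and TPX2 at -0.67 in siNC, and KIF4A at -0.11, TOP2A at -0.43, TPX2 at -0.37 and MKI67 at -0.39 in siCPSF6. With TPM at 3 h, PTTG1 was at -0.11 and TPX2 at -0.53 in siNC, and KIF4A at -0.037, TOP2A at -0.32 and TPX2 at -0.33 in siCPSF6. With spike-in scaling at 6 h, FOXM1 was at -0.071, KIF4A at -0.051, PRC1 at -0.25 and TOP2A at -0.91 in siNC, and KIF4A at -0.045, MYBL2 at -0.15, CKS1B at -0.035 and MKI67 at -0.73 in siCPSF6. With TPM at 6 h, PRC1 was at -0.043 and TOP2A at -0.74 in siNC, and MYBL2 at -0.055 and MKI67 at -0.42 in siCPSF6; TOP2A was at -0.22 with median-ratio scaling. CENPF length was at -0.25 with the 0 h libraries alone. The cause was not tested. Groups of 2 libraries and spike-in factors that differ between replicates limit all comparisons, and leaving out a library leaves a group with 1, assumed to vary like the others.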
